A study of Mus musculus with 7 samples.

Results

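Nuclear receptors are transcription factors that bind DNA through zinc fingers and, in most of the family, change activity when a small lipid-soluble ligand such as a steroid, a retinoid or an oxysterol occupies them. They act through coactivators and corepressors, and several form a heterodimer with a retinoid X receptor. RORα, the product of *Rora*, activates genes that hold a ROR response element, and the REV-ERB proteins, encoded by *Nr1d1* and *Nr1d2*, repress from the same element, which links these receptors to the circadian clock. In lymphocytes, *Rora* is best known for its role in group 2 innate lymphoid cells (ILC2) and in T cells that make IL-17. The genes described are *Rora* and 8 further receptors: the glucocorticoid receptor (*Nr3c1*), retinoic acid receptor alpha (*Rara*), retinoid X receptor alpha (*Rxra*), the vitamin D receptor (*Vdr*), *Nr1d1*, *Nr1d2*, liver X receptor beta (*Nr1h2*) and PPARδ (*Ppard*). They were chosen by symbol, and all 9 were found once among the 55367 genes of the count table.

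The libraries came from CD8+ T cells of mouse spleen, sorted from Foxp3 YFP/cre animals, in which a yellow fluorescent protein fused to Cre marks Foxp3-expressing cells. In every library the cells had been exposed to small extracellular vesicles (sEVs), labelled as 100 µg/ml for 48 hours, so no library came from cells without vesicles. HCME-sEVs, the control of 4 libraries, came from the spleen microenvironment of healthy mice, and LME-sEVs, given to 3 libraries, came from spleens of leukemic Eµ-TCL1 mice, a model of chronic lymphocytic leukemia in which the *TCL1* oncogene is expressed in B cells. The methods describe culture of CD8+ T cells on anti-CD3 with an antibody to CD28 and IL2, which activates them. They set the vesicle dose by the amount found in the respective spleen, whereas the labels give 1 dose for both groups. The paper reports far more LME-sEVs than HCME-sEVs per gram of spleen. If the dose followed the methods, vesicle dose and vesicle source cannot be told apart in any comparison here. A figure legend of the study gives the sizes of the groups the other way round, and the sample labels were followed here. The labels give neither age nor sex. The methods state an age range for mice in general, and that both sexes were used with age and sex matched within an experiment. Whether the libraries came from separate animals is not given in the labels. The p-values therefore measure only the spread between these libraries, which may be technical. Each library held 3689831 to 5030522 counts of 3′ ends collapsed by molecular identifier. Levels are given as TMM-normalized CPM, a gene's counts relative to the total of its library, and the floor of detection, set at 3 counts, lay at 0.582 to 0.807 CPM. The cells matched their label by *Cd8a*, at 341 to 435 CPM, whereas *Cd4* and *Foxp3* were at or under the floor in every library (the 3 CD4 T-cell markers summed to at most 1.60 CPM). These are bulk libraries, so a lower level cannot be told apart from fewer cells carrying the transcript.

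Of the 9 receptors, 8 averaged 5 or more counts over the libraries and were tested. Only *Rora* passed an FDR of 0.05 under edgeR's quasi-likelihood test, and it was higher with LME-sEVs. The background is that 8.96% of the 12623 genes tested passed the FDR, 3.75% upward and 5.21% downward, and that 1.28% were differentially expressed genes (DEG, which also needed a log2FC beyond 1). The other 7 tested receptors had a log2FC between −0.33 and 0.16, the median over the 8 was −0.02, and the median over all genes tested was 0.01. The levels of 2 of the 8 receptors, *Rora* and *Nr1d2*, did not overlap between the groups, against 20.3% of all genes tested.

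*Rora* (ENSMUSG00000032238, chr9:68653786-69388246 on GRCm38, plus strand) was measured at 15.9, 20.8, 25.1 and 20.5 CPM in the HCME-sEV libraries and at 43.3, 43.4 and 37.6 CPM in the LME-sEV libraries. All 3 LME-sEV libraries lay above all 4 HCME-sEV libraries. The fitted change was 2.01-fold (log2FC 1.01, SE 0.13, 95% interval 0.73 to 1.29, FDR = 1.58e-04 by edgeR with Benjamini-Hochberg adjustment). These values rested on 66 to 194 counts per library. The exact two-sided permutation test, with 35 possible arrangements, gave p = 0.0286, the smallest it can give, without adjustment over the 8 receptors so tested. *Rora* kept its FDR under 0.05 in all 16 alternative fits, with a log2FC of 0.90 to 1.12. Its standing as a DEG depended on single libraries, since the log2FC was 0.90 without HCME-sEV replicate 1, 0.99 without LME-sEV replicate 1 and 0.97 without LME-sEV replicate 2. An antisense gene, *Gm15511*, overlaps a *Rora* exon by 82 bases, and it had 0 counts in every library.

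**Figure D1:**
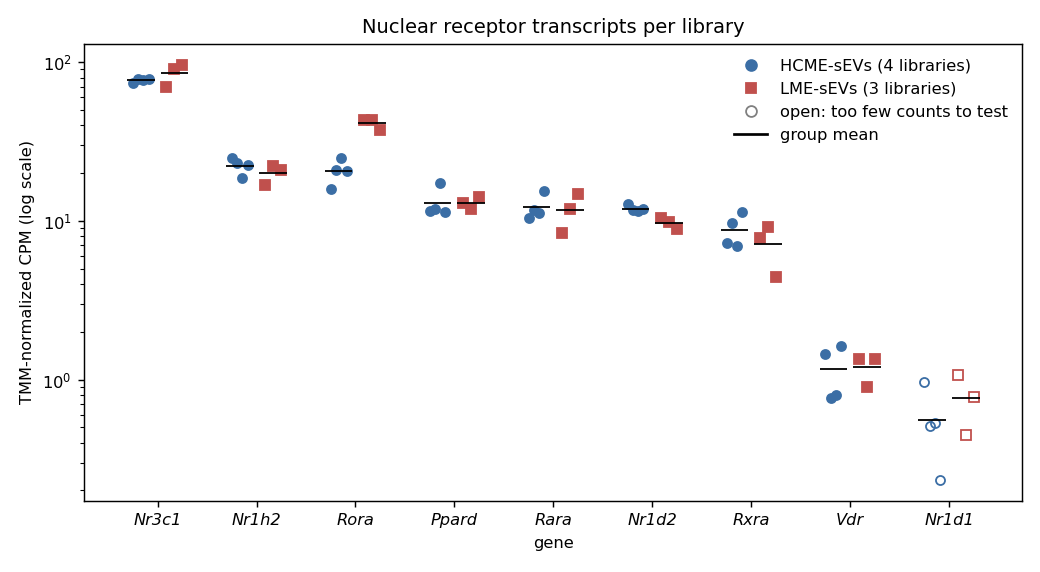
TMM-normalized CPM (log scale) of the 9 receptors in each library, circles for the 4 HCME-sEV and squares for the 3 LME-sEV libraries, with the group mean as a line and open symbols for Nr1d1, which had too few counts to test. Rora lay at 15.9 to 25.1 CPM with HCME-sEVs and 37.6 to 43.4 CPM with LME-sEVs, and among the other receptors only the Nr1d2 groups do not overlap.

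**Figure D2:**
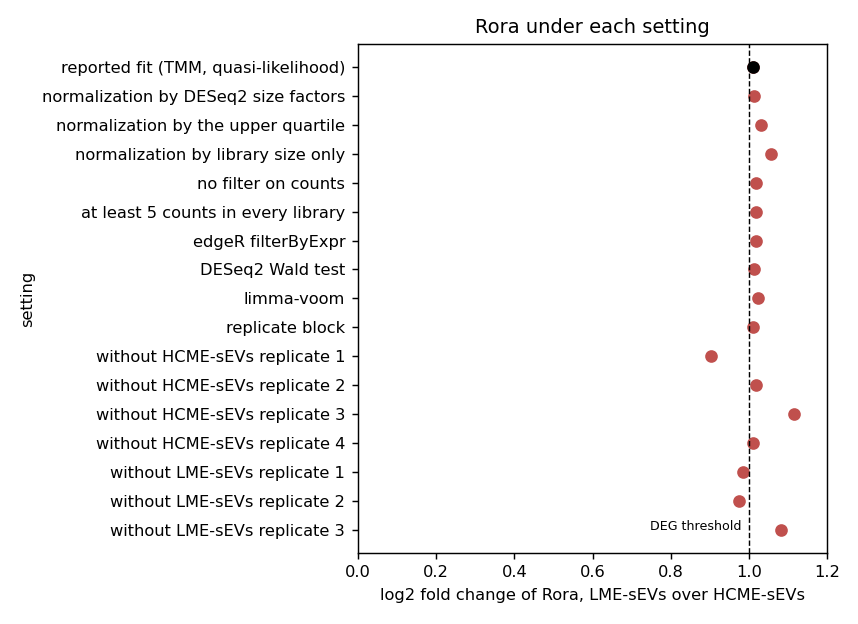
Log2 fold change of Rora (horizontal axis) in the reported fit (black) and in 16 alternatives (red), with the DEG threshold dashed. The values run from 0.90 to 1.12, and 3 fits that leave out 1 library fall below the threshold.

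Transcripts of other cell types were present and moved partly with *Rora*, and some lay above it in level. The platelet marker *Pf4* was at 30.4 to 108 CPM with HCME-sEVs and 92.7 to 118 CPM with LME-sEVs. Basophil and mast cell markers summed to 13.3 to 43.8 CPM with HCME-sEVs and 40.1 to 59.3 CPM with LME-sEVs. Of 8 tested, 3 rose (*Mcpt8*, *Prss34* and *Prg2*, at log2FC values of 1.43, 1.72 and 3.92), and the *Mcpt8* groups overlapped. *Prg2* had 0 to 2 counts with HCME-sEVs, under the floor, and 18 to 41 with LME-sEVs, so the size of its change is uncertain. *Prss34* had 0 to 14 counts with HCME-sEVs and 23 to 41 with LME-sEVs. *Cpa3* had a log2FC of −0.26 (FDR 0.721). *Fcer1a*, *Gata2*, *Cd200r3* and *Hdc* had values of 0.36 to 1.18 and were not called either. Erythroid and platelet markers summed to 74.7 to 182 CPM and 158 to 205 CPM, and 3 of 7 tested rose (*Hba-a1*, *Pf4* and *Ppbp*). Beside this and the other marker lists, 3.75% of all genes tested passed the FDR upward. The *Pf4* and *Ppbp* groups overlapped, and *Hba-a1* passed with an FDR of 0.0486. *Hbb-bs* had a log2FC of −0.01 (FDR 0.981). *Hba-a2*, *Hbb-bt* and *Itga2b* had values of 0.45 to 0.65 and were not called either. Over the HCME-sEV libraries the erythroid and platelet sum had the order of *Rora*, lowest in replicate 1, then 4, 2 and 3. The basophil and mast cell sum was lowest in replicate 1, then 4, 3 and 2. Over the LME-sEV libraries both sums had the order of *Rora*, lowest in replicate 3, then 1 and 2. There *Rora* was nearly equal in replicates 1 and 2, at 43.3 and 43.4 CPM. The part of these transcripts in the *Rora* result was not tested. ILC2 markers summed to 100.4 to 112 CPM and 90.1 to 122 CPM, mostly from *Gata3*, which T cells also express. Of these 10 markers, *Il5* was at 0, 7 had at most 3 counts in any library, and none of the 3 tested passed the FDR. B-cell, macrophage and NK-cell markers had no call, with 3 or fewer tested in each list. Their sums were 15.2 to 17.6 CPM against 17.1 to 19.4 CPM for B cells, 2.03 to 6.02 CPM against 6.01 to 7.87 CPM for macrophages and monocytes, with *Itgam* at 0 to 1 count against 6 to 8, and 14.95 to 18.4 CPM against 10.2 to 14.2 CPM for NK and γδ T cells, the last without overlap. Among 8 CD8 T-cell markers, *Cd3e* and *Cd3g* rose, the *Cd3g* groups overlapped, and the sum was 2229 to 2428 CPM against 2499 to 2812 CPM.

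*Rorb*, a paralog of *Rora*, had 1 to 6 counts per library and was not tested. Of 6 genes of the type 17 program only *Il17a* and *Ccr6* had enough counts. *Il17a* was at 2.65, 2.53, 2.67 and 2.095 CPM with HCME-sEVs and 1.08, 1.12 and 0.969 CPM with LME-sEVs, 4 to 11 counts per library. Its groups did not overlap, but at log2FC −1.21 (95% interval −2.11 to −0.32) it did not pass the FDR (0.0853). *Ccr6*, a chemokine receptor of those cells, had a log2FC of 0.59 and an FDR of 0.431.

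The REV-ERB genes differed widely in level, and neither was called. *Nr1d1* had 1 to 4 counts per library, 0.233 to 0.964 CPM with HCME-sEVs and 0.449 to 1.08 CPM with LME-sEVs, and no fold is given so near the floor. Its last exon shares 263 bases with *Thra* on the opposite strand, and whether counting used the strand is not given in the sources used here. *Nr1d2* (chr14:18204054-18239127, minus strand) was measured at 12.8, 11.7, 11.5 and 11.9 CPM with HCME-sEVs and 10.5, 9.89 and 8.92 CPM with LME-sEVs. The 3 LME-sEV libraries were all below the controls, the exact permutation test gave p = 0.0286, and the FDR of 0.326 did not pass (log2FC −0.30, SE 0.17, 95% interval −0.66 to 0.06). *Nr1d2* is also uncertain because another gene, AC170187.1, has a near-identical 3′ end.

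In the clock genes, which RORα and the REV-ERBs act on, 1 of 18 tested rose and 1 fell. The share called was 11.1%, against 8.96% of all genes tested. *Arntl*, which encodes BMAL1, the partner of CLOCK, was at 10.1, 10.9, 7.74 and 6.29 CPM with HCME-sEVs and 15.3, 14.4 and 15.1 CPM with LME-sEVs. *Nfil3*, a repressor of D-box genes, was at 29.6, 28.1, 28.3 and 24.2 CPM with HCME-sEVs and 12.4, 18.4 and 14.5 CPM with LME-sEVs. The groups of each gene stood apart in opposite directions. *Arntl* rose by 0.77 on the log2 scale (SE 0.19, FDR = 0.0141) and *Nfil3* fell by 0.86 (SE 0.15, FDR = 0.00128). The call of *Arntl* was lost without LME-sEV replicate 2 (FDR 0.0563) or replicate 3 (FDR 0.0665). *Clock* had a log2FC of 0.20 (FDR 0.385) and the 16 clock genes without a call included all 3 *Per* and both *Cry* genes. The median over the 18 was 0.06. *Arntl* shares 33 exon bases with an antisense gene, as the called *Mt2* (212), *Ucp2* (305), *Dnaja1* (608) and *Itga4* (905) share theirs with genes on the opposite strand, and without the strand setting such reads cannot be told apart.

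To place these genes on their sequence, the 300-base RefSeq promoter windows (GRCm38.p6, 250 bases before to 50 after a start site) were searched on both strands for AGGTCA, the half-site that many nuclear receptors read, and for TAGGTCA, the same letters with a T before them, as in ROR response elements (every TAGGTCA therefore also holds AGGTCA). The shorter motif was present in 16.3% and the longer in 2.61% of all 32851 windows. A gene can have several windows. Of the 9 receptors, 8 had 12 windows in all, and AGGTCA was found in 3 of these, of *Nr1d2*, *Rara* and *Rxra*, and not in that of *Rora*, and TAGGTCA in none. Of the 18 clock genes, 14 had 22 windows, of which 4 held AGGTCA (*Arntl*, *Clock*, *Nfil3* and *Per1*). TAGGTCA was held by 2 windows, of *Arntl*, which rose, and of *Nfil3*, which fell. The lists were chosen with earlier results known, and a link between the motif and a change was not tested. The 35 other receptors with a window had 52, of which 9 held AGGTCA and none TAGGTCA. The stretches of *Arntl*, *Nfil3* and the REV-ERB gene *Nr1d2* are given 5′ to 3′ on the strand of the gene. AGGTCA, or its reverse complement TGACCT, is in capitals.
Arntl, chr7:113207530-113207559, plus strand: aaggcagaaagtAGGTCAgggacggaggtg
Nfil3, chr13:52981034-52981063, minus strand: ggcgctcggaacTGACCTactaacacacat
Nr1d2, chr14:18239107-18239206, minus strand: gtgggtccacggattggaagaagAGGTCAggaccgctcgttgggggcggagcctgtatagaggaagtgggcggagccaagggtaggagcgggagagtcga
The *Arntl* match begins 32 bases into the transcript and is preceded by a T. In *Nfil3* the match reads on the other strand, is followed by an A, and begins 12 bases before the start site, and in *Nr1d2* it begins 77 bases before the start site and is preceded by a G. A match of letters is a description, and binding was not measured.

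*Nr3c1*, the glucocorticoid receptor, was the most abundant of the 9. It was measured at 74.2, 78.8, 77.1 and 78.0 CPM with HCME-sEVs and 69.7, 90.3 and 96.4 CPM with LME-sEVs. The controls lay close together and the LME-sEV libraries spread to either side of them, with replicate 1 below every control, so the groups overlapped (log2FC 0.16, 95% interval −0.05 to 0.37, FDR = 0.385). The receptor is held ready for its ligand by a chaperone complex. Genes of that complex gave the largest share of calls of any list here, 1 up and 5 down of 9 tested. The share was 66.7%, against 8.96% of all genes tested, in lists chosen with earlier results known. *Hsp90aa1*, the inducible HSP90, was at 2208, 1794, 1735 and 1747 CPM with HCME-sEVs and 1479, 1257 and 1398 CPM with LME-sEVs. Its log2FC was −0.44 (SE 0.09, FDR = 0.00419), and the call was lost without LME-sEV replicate 2 (FDR 0.0525). The co-chaperones *Ptges3* (p23), *Ppid* (cyclophilin 40), *Stip1* (HOP) and *Dnaja1* also fell, at log2FC values of −0.38, −0.36, −0.29 and −0.29. Leaving out LME-sEV replicate 2 left 3 calls in the list, *Stip1* lost its call on leaving out any 1 of 5 libraries (HCME-sEV replicates 2 and 4 and each LME-sEV replicate) and with scaling by library size only (FDR 0.0540), and *Dnaja1* on leaving out any 1 of 4 (HCME-sEV replicate 2 and each LME-sEV replicate). The constitutive *Hsp90ab1* and *Hspa8* had log2FC values of −0.08 and −0.09 and were not called. *Fkbp4*, at −0.25 with overlapping groups, was not called either (FDR 0.122). *Hsp90aa1* (2 genes), *Dnaja1* (3) and *Hspa8* (7) have copies with a near-identical 3′ end, so their counts are uncertain. The list's median was −0.29.

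*Fkbp5*, the co-chaperone that lowers the receptor's affinity for hormone and is itself induced by glucocorticoids, was counted in both lists and moved the other way. It was at 79.0, 86.2, 77.4 and 92.9 CPM with HCME-sEVs and 112, 115 and 131 CPM with LME-sEVs, with no overlap (log2FC 0.51, SE 0.09, FDR = 0.00156). Of 13 glucocorticoid targets tested, 3 rose and 3 fell (46.2% called, against 8.96% of all genes tested), and the median was 0.07. *Il7r*, the IL-7 receptor alpha chain, was at 188, 195, 250 and 197 CPM against 298, 291 and 303 CPM (log2FC 0.52, FDR = 0.00125), and *Tsc22d3*, which encodes GILZ, had a log2FC of 0.56 (FDR 0.0243), a call lost on leaving out HCME-sEV replicate 1 or 2 or any LME-sEV replicate and with DESeq2 (adjusted p = 0.0597). The metallothioneins *Mt2* and *Mt1*, which also respond to metals, fell by 0.47 and 0.44, the latter without a call when LME-sEV replicate 3 was left out (FDR 0.0528). *Errfi1* fell by 0.90 with an FDR of 0.0497, and kept its call in 4 of 16 alternatives. Leaving out LME-sEV replicate 3 left 3 calls among the targets. *Dusp1*, *Per1*, *Klf9* and *Sgk1* were not called, at log2FC values between −0.05 and 0.23.

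The retinoid receptors did not pass the test. *Rara* was at 10.4, 11.7, 11.2 and 15.4 CPM with HCME-sEVs and 8.34, 11.9 and 14.7 CPM with LME-sEVs. *Rxra*, the shared partner, was at 7.23, 9.63, 6.94 and 11.4 CPM and 7.80, 9.21 and 4.46 CPM. The ranges of the groups overlapped in each gene, with a log2FC of −0.04 for *Rara* (95% interval −0.46 to 0.38, FDR 0.943) and −0.33 for *Rxra* (95% interval −0.86 to 0.21, FDR 0.491). The retinoid receptors outside the 9 were similar in this respect, with *Rarg* at log2FC 0.04 and *Rxrb*, the most abundant of the group at 32.8 to 38.0 CPM, at −0.01 (95% interval −0.23 to 0.22). Among 9 tested genes of retinoid metabolism and response, 1 rose and 1 fell (22.2% called, against 8.96% of all genes tested). *Itga4*, the integrin α4 subunit, was at 60.2, 66.4, 75.2 and 69.6 CPM against 98.2, 97.98 and 90.2 CPM (log2FC 0.49, FDR = 0.00240). *Crabp2*, which carries retinoic acid to its receptor, was at 12.3, 9.38, 9.60 and 9.31 CPM against 5.38, 5.17 and 5.62 CPM (log2FC −0.91, FDR = 0.0110), without a call when LME-sEV replicate 2 was left out (FDR 0.0611). The retinoic acid-making genes *Aldh1a1*, *Aldh1a2* and *Aldh1a3* and the degrading *Cyp26* genes had too few counts to test.

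*Nr1h2*, the oxysterol receptor LXRβ, ranged from 18.7 to 24.8 CPM with HCME-sEVs and was at 16.95, 22.0 and 20.9 CPM with LME-sEVs (log2FC −0.15, 95% interval −0.45 to 0.15, FDR 0.578). Its targets moved in either direction, 1 up and 1 down of 9 tested (22.2% called, against 8.96% of all genes tested). *Smpdl3a*, a phosphodiesterase related to acid sphingomyelinase, was at 26.9 to 31.9 CPM with HCME-sEVs and 41.4, 49.9 and 39.7 CPM with LME-sEVs (log2FC 0.59, FDR = 0.00344). *Fasn*, fatty acid synthase, was at 158 to 187 CPM and 124, 116 and 121 CPM (log2FC −0.52, FDR = 6.24e-04). The cholesterol exporter *Abcg1* had a log2FC of 0.39 (FDR 0.21) and *Srebf1* of 0.15, neither called. The paralog *Nr1h3* (LXRα) had 0 to 6 counts and was not tested.

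*Ppard*, a fatty acid sensor, was at 11.6, 11.9, 17.3 and 11.4 CPM with HCME-sEVs and 12.9, 11.9 and 14.2 CPM with LME-sEVs. One control, replicate 3, stood above all other libraries, and the difference between groups was close to 0 (log2FC 0.0049, 95% interval −0.37 to 0.38, FDR 0.991). Of 11 target genes of fatty acid use tested, 1 rose and 1 fell, with a median of 0.18. The share called was 18.2%, against 8.96% of all genes tested. *Ucp2*, a mitochondrial carrier, was at 124, 98.3, 85.1 and 139 CPM against 171, 200.2 and 192 CPM (log2FC 0.75, FDR = 6.91e-04). *Angptl4*, a secreted lipase inhibitor, was at 12.8, 10.6, 9.60 and 7.68 CPM against 4.30, 5.17 and 5.82 CPM (log2FC −0.98, FDR = 0.0120), without a call when LME-sEV replicate 2 was left out (FDR 0.0587). *Cpt1a*, *Plin2* and *Slc25a20* had log2FC values of 0.23 to 0.34 and were not called.

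*Vdr* was near the floor, with 3 to 7 counts per library (0.760 to 1.63 CPM with HCME-sEVs and 0.899 to 1.36 CPM with LME-sEVs). The interval of its log2FC, −1.03 to 1.09 around 0.03, would hold a change of the size seen for *Rora*. None of the 6 genes of vitamin D metabolism was tested, and the hydroxylase *Cyp27b1*, which makes the active hormone, had 0 counts in every library.

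**Figure D3:**
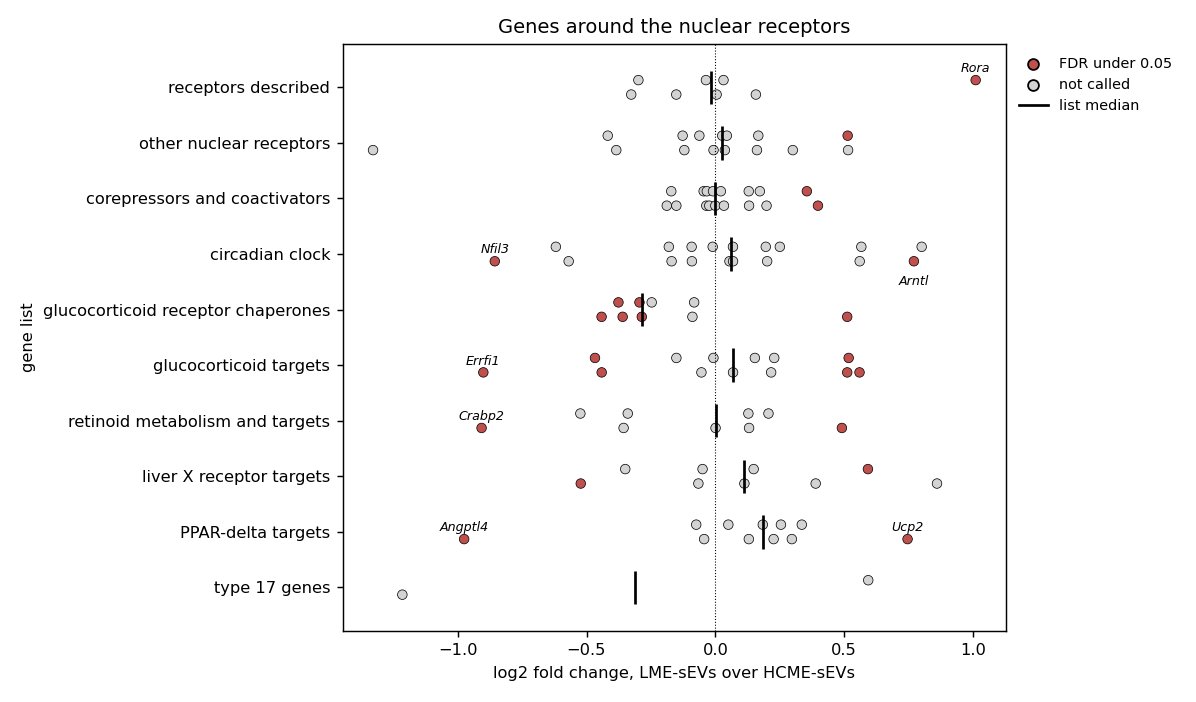
Log2 fold change (LME-sEVs over HCME-sEVs) of each tested gene in 10 lists, red where the FDR was under 0.05, with the list median as a bar. Rora is the 1 call among the receptors described, and the chaperone list has a median of −0.29 with Fkbp5 on the opposite side.

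Placed in order of level, which a 3′-end count allows without a correction for length, *Nr3c1* stood above every other receptor in both groups. With HCME-sEVs, *Rora* ranked 3, and its range overlapped that of *Nr1h2* above it and of *Ppard* below it. With LME-sEVs it ranked 2, between *Nr3c1* at 69.7 to 96.4 CPM and *Nr1h2* at 16.95 to 22.0 CPM, without overlap on either side. *Ppard*, *Rara* and *Nr1d2* followed in that order in both groups, with *Ppard* overlapping *Rara* and *Rara* overlapping *Nr1d2*. *Rxra*, *Vdr* and *Nr1d1* were the lowest, with *Rxra* clear of *Nr1d2* only with HCME-sEVs and clear of *Vdr* in both groups, and *Vdr* and *Nr1d1* overlapped in each.

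Together with 38 further members of the family, 23 of 47 receptors were tested, and 2 passed the FDR, both upward. That share, 8.70%, lay near the 8.96% of all genes tested. Of the 24 without a test, 8 were at 0 in every library and none exceeded 6 counts in any. The call beside *Rora* was smaller. *Thra*, thyroid hormone receptor alpha, was at 19.0, 20.02, 22.9 and 18.6 CPM with HCME-sEVs and 26.4, 32.1 and 27.5 CPM with LME-sEVs (log2FC 0.51, SE 0.13, FDR = 0.0173). All 3 LME-sEV libraries lay above all 4 controls, and the call was lost without HCME-sEV replicate 4 or LME-sEV replicate 2 or 3 (FDR 0.0505 to 0.126). *Thra* shares the 263 bases named for *Nr1d1*.

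The *Nr4a* receptors, which antigen receptor signals induce, were abundant and none was called. *Nr4a2* was at 119 to 157 CPM with HCME-sEVs and 146 to 158 CPM with LME-sEVs (log2FC 0.17, 95% interval −0.02 to 0.36), *Nr4a3* had a log2FC of 0.03 (−0.16 to 0.22) and *Nr4a1* of −0.06 (−0.30 to 0.18). *Nr2c2* was at 118 to 133 CPM and 140 to 146 CPM, without overlap, and did not pass (log2FC 0.16, FDR 0.234), and like *Ncor1* it has 1 copy with a near-identical 3′ end. *Nr2f1* had the most negative value, −1.33, at 2 to 16 counts per library and an FDR of 0.167. The remaining receptors without a call, *Thrb*, *Ppara*, *Nr2c1*, *Nr2f6*, *Esr1*, *Esrra* and *Nr6a1*, had log2FC values between −0.42 and 0.52. Of 17 cofactors tested, 2 rose and none fell (11.8% called, against 8.96% of all genes tested). The corepressor *Nrip1* was at 97.6 to 122 CPM against 139 to 144 CPM (log2FC 0.36, FDR = 0.0120) and the coactivator *Ncoa2* at 45.3 to 59.5 CPM against 62.7 to 69.4 CPM (log2FC 0.40, FDR = 0.0209), and each lost its call without LME-sEV replicate 2 or 3 (*Ncoa2* also without HCME-sEV replicate 2 or 4). *Ncor1*, which holds the corepressor complex on unliganded receptors, had a log2FC of 0.13 and was not called.

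**Figure D4:**
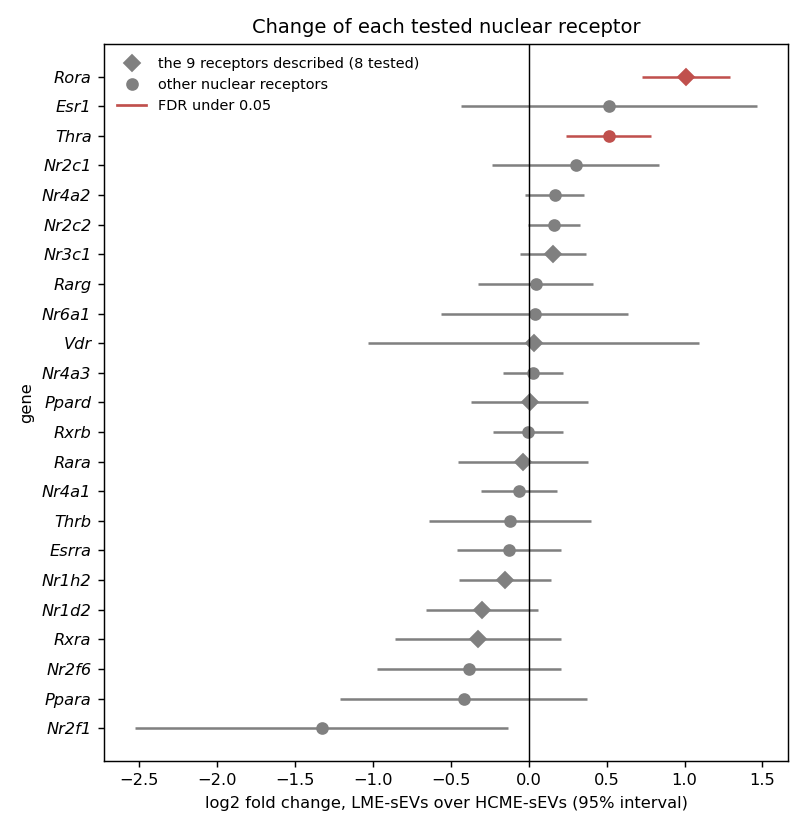
Log2 fold change with its 95% interval for 23 tested nuclear receptors, diamonds for the 8 tested of the 9 described and circles for the others, red where the FDR was under 0.05. Rora and Thra lie to the right of 0, and the interval of Vdr spans −1.03 to 1.09.

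The genes whose log2 CPM over the 7 libraries most resembled that of *Rora*, among 9694 with a mean of at least 20 counts, were *Itga4* (Pearson r = 0.996), *Bmpr2* (0.988), *Fam193b* (0.987), *Plxnc1* (0.986) and *Spg11* (0.985). Since the libraries form 2 groups, such values mostly describe the distance between the groups, and they are given as a description. *Itga4* and *Plxnc1*, a semaphorin receptor, passed the FDR, with *Plxnc1* at 79.5 to 94.7 CPM against 110 to 129 CPM (log2FC 0.45, FDR = 0.00356). *Bmpr2*, *Fam193b* and *Spg11* had non-overlapping groups, log2FC values of 0.46, 0.31 and 0.26 and FDR values of 0.132, 0.11 and 0.198.

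**Figure D5:**
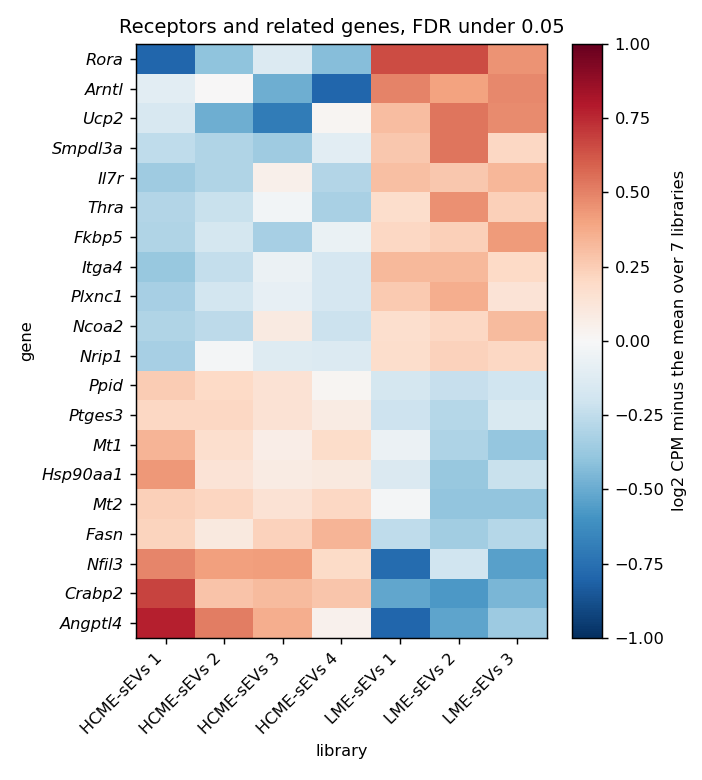
Log2 CPM minus the mean over 7 libraries for receptors, pathway genes and genes most like Rora with an FDR under 0.05, ordered by fold change, with 4 HCME-sEV columns and 3 LME-sEV columns. Cell type markers are not among the rows. Rora rose most among these rows, and its lowest value is in HCME-sEV replicate 1, at 15.9 CPM.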

How the data were processed

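The authors deposited whole-number counts per gene symbol, without normalization. Per the labels and the methods, QuantSeq 3′ FWD libraries with molecular identifiers were trimmed (cutadapt 2.10), aligned to GRCm38 (STAR 2.5.3a), collapsed by identifier (UMI-tools 1.0.0) and counted (featureCounts, Subread 2.0.0). Collapsing removes PCR copies, and the annotation release and strand setting are not given in the sources used here. The floor of 3 counts covers counting error only, and the intervals of log2FC also hold the spread between libraries. Genes averaging 5 or more counts were tested, a reading of the minimum of 5 in the methods. Counts were normalized by TMM (factors 0.965 to 1.03) and tested with edgeR 4.0.16 (quasi-likelihood, R 4.3.3), LME-sEVs against HCME-sEVs without a covariate, with FDR over all 12623 genes tested. DEG had an FDR under 0.05 and a log2FC beyond 1. Log2 CPM used a prior count of 2. Alternatives used limma 3.58.1, DESeq2 1.42.0, other scalings and filters, a replicate block and leaving out each library.

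The receptors and lists were chosen with earlier results of these data known. Named were the 9 receptors, every other tested receptor of the list, up to 4 genes per list with the smallest FDR under 0.05 (or the 2 most abundant where fewer than 2 passed), genes overlapping a member and the 5 most like *Rora*. Further list members were named after their values were seen. Some genes were removed from the lists and are not reported here. Positions are from GENCODE vM21, in which all 164 listed genes were found, and 3′ copies were searched with blast 2.17.0 (95% identity over at least 200 bases of the last 300). Replicate pairs of a group differed by more than counting noise (chi-square per degree of freedom 2.12 to 6.13). The test was first checked on simulated data.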

Additional observations from a re-analysis of the deposited data

Results flagged for a closer look

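Of 31 genes looked at for a library standing apart within the 4 HCME-sEV libraries, 4 had one, and chance flags about 1 in 20 groups. *Ppard* was highest in replicate 3, at 17.3 CPM against 11.4 to 11.9 CPM in the other controls, a gap of 0.915 of the range. *Il7r* was also highest in replicate 3, at 249.9 CPM against 188 to 197 CPM, a gap of 0.857 of the range. *Hsp90aa1* was highest in replicate 1, at 2208 CPM against 1735 to 1794 CPM, a gap of 0.874 of the range. *Crabp2* was highest in replicate 1 as well, at 12.3 CPM against 9.31 to 9.60 CPM, a gap of 0.902 of the range.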

How the results depend on the processing

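*Rora* passed the FDR in each of 16 alternatives and was a DEG in 13, with 0 to 1 receptors of the 9 being a DEG when 1 library was left out and a log2FC of 0.90 to 1.12. Receptors past the FDR among the 47 numbered 2 in each of the 9 other settings and 1 to 2 when 1 library was left out. No other receptor of the 9 passed the FDR in any setting. The sign of *Rara* turned with scaling by library size only (0.0088), with the replicate block (0.071) and on leaving out a library (−0.25 to 0.14), that of *Ppard* with the block (−0.064) and on leaving out a library (−0.068 to 0.16), and that of *Vdr*, which was fitted in 11 alternatives, on leaving out a library (−0.12 to 0.20). Same-numbered libraries of the groups deviated together only weakly (correlations 0.0721, 0.155 and 0.0268), and 3 of 6 correlated best with their own number, and whether they share an animal or day is not given in the labels. The block raised the genes past the FDR from 1131 to 1454 and gave *Rora* a log2FC of 1.01. Genes past the FDR fell to 391 without LME-sEV replicate 2, 458 without LME-sEV replicate 3 and 723 without HCME-sEV replicate 2, and DESeq2 called 105 DEG against 162. At this depth *Nr1d1* could not be tested, and the interval of *Vdr* did not leave out a change of the size of *Rora*.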
